A study of Mus musculus with 7 samples.

Results

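Zscan4 genes encode proteins with a SCAN domain and zinc fingers. They are known for a burst of expression in the mouse embryo at the 2-cell stage, when the embryo's own genome is first transcribed. In cultures of mouse embryonic stem cells they are on in a small, shifting minority of cells at any moment, the 2-cell-like cells, and are tied there to telomere lengthening by recombination. The homeobox factor Dux is known to switch on Zscan4 and other 2-cell-stage transcripts in such cells. Zfp352, a zinc finger gene made from a retrotransposed copy, belongs to the same group of early transcripts.

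Names of 7 genes were looked up in the expression table, Zscan4a to Zscan4f and Zfp352, and a gene was kept where its row was above 0 in at least 1 library. Of these 7 names, 5 had such a row among the 30590 rows of the table: Zscan4b, Zscan4c, Zscan4d, Zscan4f and Zfp352. Zscan4a and Zscan4e had no row in the table used here, and neither had the annotated copies named Zscan4-ps. All 5 genes entered the fit of 21813 genes, so none was lost to a filter.

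The libraries were polyA RNA-seq of whole cultures of Bry-GFP mouse embryonic stem cells, a line whose name refers to a GFP reporter of Brachyury. Day 0 (2 libraries) was the stem cells, grown on mouse embryonic feeder cells in serum with LIF at 1000 U/mL. Day 2 (2 libraries) was embryoid bodies, aggregates formed in suspension from 75000 cells/mL over 48 hours without serum, after removal from the feeders. Day 4 (2 libraries) followed 48 more hours with 3 factors, Noggin (150 ng/mL), Wnt3a (25 ng/mL) and Activin A (9 ng/mL), a mixture chosen to induce primitive streak. Day 6 (1 library) followed 48 hours with bFGF at 10 ng/mL and without the day 4 factors. All groups were the same reporter line, and the labels call the 2 libraries of a day biological replicates without saying what was grown separately. The column names carry a tag shared by libraries of the same replicate number over the days, and what it stands for is not given. Each day differed from the one before in time and in medium together, and these cannot be told apart.

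Zscan4 copies sit close together on chromosome 7 in the GRCm38 assembly. By the GENCODE M21 annotation, Zscan4b spans chr7:10900740-10905050 on the minus strand, Zscan4c chr7:11005745-11010547 on the plus strand, Zscan4d chr7:11161374-11166159 on the minus strand and Zscan4f chr7:11397915-11402318 on the plus strand, each with 4 exons in its longest transcript. Zfp352 lies elsewhere, at chr4:90218820-90225702 on the plus strand, with 2 exons. Zscan4a (chr7:10794242-10799057) is annotated as an unprocessed pseudogene.

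The sequence around the start of the genes is shown as a description: the Zscan4 copies are almost alike there. Most of each Zscan4 stretch lies before the annotated gene start, so it does not show how reads were divided among the rows. The RefSeq promoter table (GRCm38.p6, from 250 bases before to 50 bases after each gene start) matched all 5 genes. The 4 Zscan4 stretches below are 187 bases long, aligned on a TATAAAA run shown in capitals, and run 5′ to 3′ on the gene's strand. They lie at chr7:10905015-10905201 (minus strand) for Zscan4b, chr7:11005571-11005757 (plus) for Zscan4c, chr7:11166147-11166333 (minus) for Zscan4d and chr7:11397764-11397950 (plus) for Zscan4f.
Zscan4b: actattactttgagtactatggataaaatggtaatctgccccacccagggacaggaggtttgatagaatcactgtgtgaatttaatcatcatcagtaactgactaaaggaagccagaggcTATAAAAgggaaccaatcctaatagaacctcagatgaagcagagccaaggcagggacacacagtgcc
Zscan4c: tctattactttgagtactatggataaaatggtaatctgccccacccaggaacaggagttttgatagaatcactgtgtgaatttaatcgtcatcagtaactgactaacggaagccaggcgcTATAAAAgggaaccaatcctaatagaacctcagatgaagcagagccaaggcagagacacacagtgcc
Zscan4d: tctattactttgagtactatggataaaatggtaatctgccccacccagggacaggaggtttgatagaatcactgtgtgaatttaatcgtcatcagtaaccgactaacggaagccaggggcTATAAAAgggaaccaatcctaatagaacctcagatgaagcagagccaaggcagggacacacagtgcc
Zscan4f: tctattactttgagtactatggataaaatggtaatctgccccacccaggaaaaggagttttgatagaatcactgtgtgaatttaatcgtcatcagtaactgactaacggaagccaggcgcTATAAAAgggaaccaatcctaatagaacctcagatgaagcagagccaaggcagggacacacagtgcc

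Of the 187 positions, 177 held the same base in all 4 copies. Zscan4c and Zscan4f differed at 2 positions, and Zscan4b differed from each of Zscan4c and Zscan4f at 8. The TATAAAA run was in all 4 copies, against 5.48% of 32851 RefSeq windows of the same 300 bases, counted on either strand. The run starts 31 bases before the RefSeq gene start in Zscan4b and Zscan4f, 54 before in Zscan4c and 65 before in Zscan4d. A match of these letters is a description and not evidence of a working site.

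The Zfp352 window, chr4:90218570-90218869 on the plus strand, shares no such run and is shown for its contrast with the Zscan4 copies. It holds 9 units of GACAACACAC, in capitals, in its upstream part. The unit was picked as the most frequent run of 10 bases in this same window. Its rarity in other windows therefore only describes it.
Zfp352: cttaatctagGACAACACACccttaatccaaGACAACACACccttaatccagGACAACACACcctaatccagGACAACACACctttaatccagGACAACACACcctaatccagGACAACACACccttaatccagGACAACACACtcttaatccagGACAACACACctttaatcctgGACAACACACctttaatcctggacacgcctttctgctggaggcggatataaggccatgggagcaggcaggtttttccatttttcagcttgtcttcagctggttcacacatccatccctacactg
GACAACACAC on either strand was in 17 of the 32851 windows (0.0517%), and 2 windows held more than 1 unit on a strand.

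Zscan4 transcripts were abundant in the stem cells, and their summed level was lower at each later day. Values are levels: log2 of 1 plus reads scaled by the authors, with a pseudocount of 1 that is already in the deposited numbers. Zscan4f, the highest of the rows, was at 9.90 and 10.67 at day 0, 8.16 and 7.83 at day 2, 4.61 and 4.79 at day 4, and 2.86 at day 6. Its 4 days did not overlap, which only describes the values, as the share of all genes separated in this way was not counted. Zscan4c was at 8.32 and 9.38 at day 0, 6.73 and 6.62 at day 2, 0.85 and 2.32 at day 4, and was listed at 0 at day 6. Zscan4d was at 7.94 and 8.93, then 5.92 and 6.69, then 2.72 and 2.03, and ended at 2.04. For Zscan4d the day 6 value lay inside the range of day 4. Zscan4b was at 7.95 and 8.40 at day 0 and 5.62 and 5.77 at day 2. On day 4 it was listed at 0 in replicate 1 and at 1.96 in replicate 2, and at day 6 it was listed at 0. Zfp352 was low throughout, at 3.41 and 3.16 at day 0, 2.46 and 1.09 at day 2, and 0 in all 3 later libraries. The level that 3 reads give was 1.45 to 2.30 depending on the library, so the day 4 and day 6 values of Zscan4b, Zscan4c and Zscan4d and the day 2 values of Zfp352 are at or near the limit of these libraries. The day 6 value of Zscan4f, 2.86, was not far above the 2.14 that 3 reads give in that library.

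**Figure D1:**
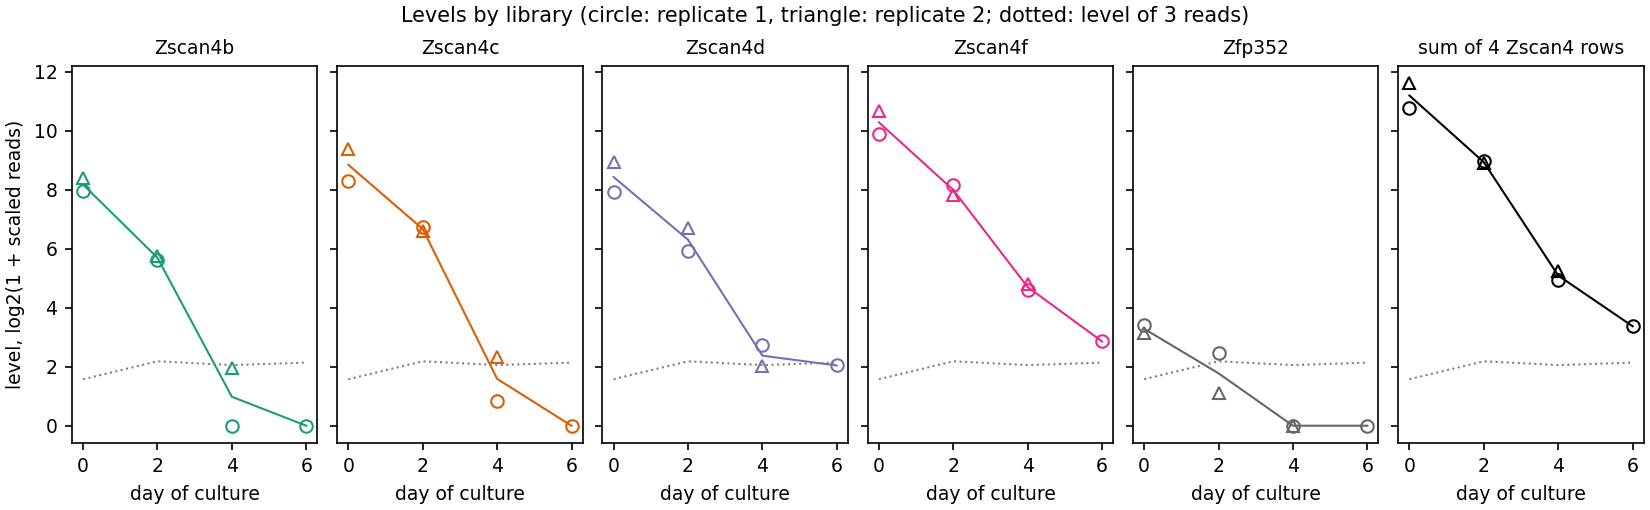
Level of each gene, and of the 4 Zscan4 rows summed, by day of culture (x axis, days; y axis, log2 of 1 plus scaled reads); circles are replicate 1, triangles replicate 2, lines join the day means and the dotted line is the mean level of 3 reads. The sum falls from 10.79 and 11.61 at day 0 to 3.37 at day 6, and the lower Zscan4 rows meet the dotted line from day 4 on.

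Since the copies are near-identical, the rows were also summed on the linear scale. The summed Zscan4 level was 1764 and 3126 scaled reads at day 0, 498 and 479 at day 2, 29.9 and 36.7 at day 4, and 9.37 at day 6. The day means were 2445 ± 963 (SD, n = 2), 489 ± 13.5 (SD, n = 2), 33.3 ± 4.82 (SD, n = 2) and 9.37 (n = 1). No 2 days overlapped, which again only describes the values. The sum at day 2 was 5.0-fold below day 0, day 4 was 14.7-fold below day 2, and day 6 was 3.55-fold below day 4. Between day 0 and day 4 the sum was 73.4-fold apart. The 2 stem cell libraries themselves differed 1.77-fold, more than the libraries of any other day did. No p is given for the sum. As rough reads, estimated from the smallest steps of the deposited values, the sums stood for 2744 and 4029 reads at day 0, 442 and 362 at day 2, 23.1 and 43.1 at day 4, and 8.32 at day 6. The steps of a few reads were extended in proportion, which need not hold at high levels, so the larger numbers are the least certain. The RNA came from whole cultures, so fewer expressing cells and less RNA per expressing cell cannot be told apart.

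Stem cells against day 2 embryoid bodies, the step that removed feeders, serum and LIF, gave a fall in 2 of the 5 genes. Zscan4f fell 4.90-fold (log2 change -2.29, SE 0.29, limma adjusted p = 0.0055) and Zscan4d fell 4.37-fold (log2 change -2.13, SE 0.47, limma adjusted p = 0.033). In this comparison limma called 12.0% of all genes tested, 6.20% of them as lower. Zscan4b (log2 change -2.48, limma adjusted p = 0.053) and Zscan4c (log2 change -2.18, limma adjusted p = 0.056) had differences of the same size and missed the threshold of 0.05. Zfp352 had a log2 change of -1.51 (limma adjusted p = 0.18). In these 5 genes both day 2 libraries were below both day 0 libraries. The share of all genes separated in this way was not counted, so this only describes the values. These calls were fragile: without any 1 of the 6 libraries of days 0, 2 and 4, Zscan4d and Zscan4f missed the threshold, with a limma adjusted p of 0.0544 to 0.0888 for Zscan4f. Zscan4d also missed it without limma's robust and trend options (limma adjusted p = 0.091).

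The next 48 hours, with Noggin, Wnt3a and Activin A, held the larger drop for the 4 Zscan4 rows on the deposited scale. All 4 fell: Zscan4c by 5.08 on the log2 scale (SE 0.57, limma adjusted p = 0.012), Zscan4b by 4.71 (SE 0.64, limma adjusted p = 0.019), Zscan4d by 3.93 (SE 0.47, limma adjusted p = 0.014) and Zscan4f by 3.29 (SE 0.29, limma adjusted p = 0.0082). The sizes depend on the pseudocount, since these rows came close to 0: with a pseudocount of 10 the log2 changes were -3.17 for Zscan4c, -2.42 for Zscan4b, -2.63 for Zscan4d and -2.91 for Zscan4f, all still called, and with 0.5 that of Zscan4b was -5.30. At 10, the second step of Zscan4b (-2.42) was close to its first (-2.30). limma called 3.59% of all genes in this step, 2.13% as lower. Zfp352, listed at 0 in both day 4 libraries, missed the threshold (limma adjusted p = 0.17). With any 1 of the 6 libraries left out, limma called no gene at all in this step, these 5 included, while 3511 to 5139 genes had an unadjusted p under 0.05. Without limma's robust and trend options, Zscan4b, Zscan4c and Zscan4d missed the threshold (limma adjusted p = 0.073, 0.056 and 0.058).

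Whether the 2 steps differed in size was not tested, so the larger drop at day 4 is a statement about the values. In the summed level the second step was 14.7-fold and the first 5.0-fold.

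From day 4 to day 6, when bFGF replaced the day 4 factors, Zscan4f was the only one of the genes called. It fell 3.59-fold (log2 change -1.85, SE 0.35, limma adjusted p = 0.044), with both day 4 libraries above the single day 6 library. The day 6 level of Zscan4f stood for only 5.55 rough reads, against 18.2 and 31.4 in the day 4 libraries. limma called 4.46% of all genes in this step, 3.18% as lower and 1.27% as higher. Day 6 has 1 library, and its spread was taken to equal that of the other days. With the replicate number added to the fit as a block, Zscan4f missed the threshold (log2 change -1.74). The call was lost without any 1 of the 6 other libraries, with a limma adjusted p of 0.0887 to 0.186. It was also lost with a pseudocount of 10 (log2 change -1.11, limma adjusted p = 0.11) and without limma's robust and trend options (limma adjusted p = 0.097). Zscan4c had a log2 change of -1.59 (limma adjusted p = 0.22), Zscan4b of -0.98 (limma adjusted p = 0.51) and Zscan4d of -0.33 (limma adjusted p = 0.80).

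Over the whole interval from day 0 to day 4, all 5 genes fell. Zscan4f fell 48.0-fold (log2 change -5.59, SE 0.29, limma adjusted p = 0.00021) and Zscan4d fell by 6.06 on the log2 scale (SE 0.47, limma adjusted p = 0.00056), both on the log2(1 + scaled reads) scale. Zscan4b (limma adjusted p = 0.00088) and Zscan4c (limma adjusted p = 0.00058) also fell, by 7.20 and 7.26 on the log2 scale. With a pseudocount of 10 the log2 changes were -4.64 for Zscan4d, -4.72 for Zscan4b and -5.26 for Zscan4c, and each stayed past the threshold. Zfp352 went from 3.41 and 3.16 to a listing of 0 in both libraries (limma adjusted p = 0.013), for which no fold is given. limma called 21.7% of all genes here, 10.4% as lower. Zscan4f was past the threshold in 5 of the 6 fits that each left out 1 library and reached 0.0502 in the other, without day 4 replicate 1. Zscan4b missed it without either day 0 library and Zscan4d without day 0 replicate 2 or day 4 replicate 1. Zscan4c missed it without either day 0 library or without day 4 replicate 1, and Zfp352 without any library of day 0 or day 4. Each of the 5 genes also differed over the days as a whole by limma's joint test, with adjusted p from 0.00039 for Zscan4f to 0.027 for Zfp352, where 28.6% of all genes did.

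Among the 4 rows, Zscan4f held the largest share of the sum, both before and after length was taken into account. Before, its share was 47.2% (day 2 replicate 2) to 78.6% (day 4 replicate 1). Scaled reads per kb of the longest annotated transcript were 523 and 893 for Zscan4f at day 0. Of the 4 rows' summed reads per kb, Zscan4f held 57.6% and 56.2% at day 0, 61.1% and 51.2% at day 2, 82.0% and 75.5% at day 4, and 71.3% at day 6. Its share was thus higher in the 3 late libraries than in the 4 early ones, but the late shares rest on at most 43.1 rough reads. Zscan4b held 15.3% and 11.9% at day 0, Zscan4c 15.4% and 18.4%, and Zscan4d 11.8% and 13.5%. These 3 did not stand in a fixed order: Zscan4d was the lowest at day 0 in replicate 1 and Zscan4b in replicate 2. Zfp352 stood far below them, at 4.24 and 3.49 scaled reads per kb at day 0.

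**Figure D2:**
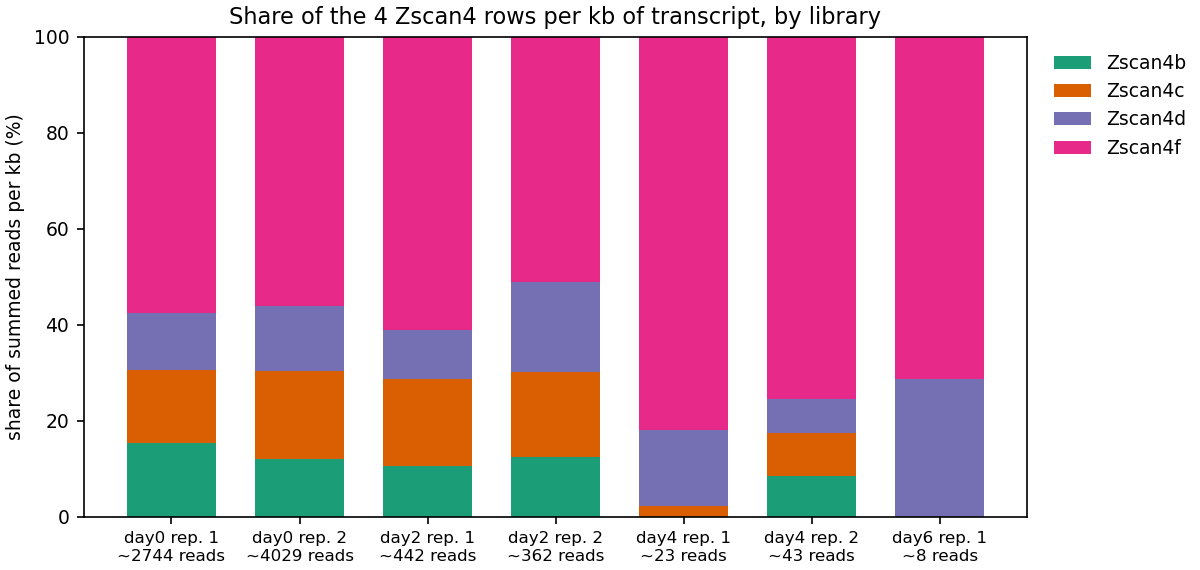
Share of each Zscan4 row in the 4 rows' summed scaled reads per kb of transcript (y axis, percent) in each of the 7 libraries (x axis, with rough reads under each). Zscan4f holds 51.2% to 61.1% on days 0 and 2 and 71.3% to 82.0% on days 4 and 6, where the bars rest on few reads.

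These shares depend on how reads that fit several copies were assigned, and the sources used here do not give that. In the longest GENCODE M21 transcripts, 93.7% of the 50-base windows of Zscan4f also occurred in another Zscan4 copy, as did 87.9% of those of Zscan4b, 85.5% of Zscan4c and 49.6% of Zscan4d. At 100 bases the shares were 89.5%, 76.1%, 72.8% and 29.6%. Zscan4d was thus the row with the most sequence of its own. Over aligned bases Zscan4c and Zscan4f were 99.6% identical, while Zscan4b and Zscan4d, the least alike of the 4, were 96.6% identical. Some of the closest copies had no row: Zscan4b was 99.7% identical to Zscan4e, and Zscan4f 99.8% to Zscan4-ps2. Reads of such copies may stand in the rows that are there, and each single row is uncertain for that reason. Zscan4c in day 4 replicate 1 was at 0.85, below the 1.20 that 1 read gives in that library, so at least this row held a fraction of a read. Such fractions made up 2.23% to 2.77% of the genes above 0.

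Other transcripts of the 2-cell-like state were read from a list of 39 genes, 36 of them in the table and 33 above 0 in some library; Dux itself, Duxf3 and Gm2022 had no row. From day 0 to day 4, 21 of the 33 fell (63.6%, against 10.4% of all genes called lower) and none rose, with a median log2 change of -2.92 against 0 over all genes tested. The strongest were predicted genes: Gm8300 was at 6.29 and 6.50 at day 0, 5.36 and 4.73 at day 2, and was listed at 0 from day 4 on. Gm5662 was at 7.20 and 7.34 at day 0 and at 2.73 and 0 at day 4 (limma adjusted p = 0.0049). Gm2016 was at 6.89 and 7.47 at day 0, 5.12 and 5.28 at day 2, 2.46 and 1.78 at day 4, and 1.91 at day 6. Gm2016 fell in both of the first 2 steps (limma adjusted p = 0.024 and 0.017). Tcstv3, one of the genes first found in 2-cell embryos, was at 3.09 and 3.67 at day 0, 0.43 and 1.61 at day 2, and was listed at 0 from day 4 on (limma adjusted p = 0.010 from day 0 to day 4). Tcstv1 was at 2.36 and 2.76 at day 0 and at 1.83 and 0 at day 4 (limma adjusted p = 0.16).

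By step, the list gave fewer calls. By day 2, 3 of 33 fell (9.09%, close to the 6.20% of all genes called lower), with a median of -1.32 against 0.05 over all genes and 29 of the 33 below 0: Lgals4, Tdpoz4 and Gm2016. Lgals4 and Tdpoz4 were listed at 0 in both day 2 libraries, after levels of 2.80 and 3.28 and of 2.99 and 2.43 at day 0. The count was 2 without either day 0 library and 0 without any library of day 2 or day 4, with 7 to 13 genes then at an unadjusted p under 0.05 in limma. From day 2 to day 4, 4 of 33 fell (12.1%, against 2.13% of all genes called lower), with a median of -1.15 against 0: Gm8300, Gm13119, Gm12794 and Gm2016. From day 4 to day 6 limma called none of the 33, 2 of them had an unadjusted p under 0.05, and the median was 0. The count from day 0 to day 4 ranged from 0 to 17 when 1 library was left out: 0 without day 4 replicate 1 (19 with an unadjusted p under 0.05), 6 without day 0 replicate 2, 7 without day 0 replicate 1 and 8 without day 4 replicate 2. It was 3 where genes with a low mean level were left out, since few of the list reach that level. For the step to day 4 the count was 0 without any 1 of the 6 libraries, with 9 to 11 genes at an unadjusted p under 0.05.

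The 2 stem cell libraries differed in these transcripts too. Of the 33 genes, 28 (84.8%) were higher in day 0 replicate 2 than in replicate 1, against 49.4% of the 19599 genes above 0 at day 0. All 4 Zscan4 rows were higher in replicate 2, while Zfp352 was higher in replicate 1. The list's summed level was 730 and 1207 scaled reads at day 0, 326 and 307 at day 2, 55.8 and 25.6 at day 4, and 31.2 at day 6. The difference between the 2 libraries of day 0 has no test.

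**Figure D3:**
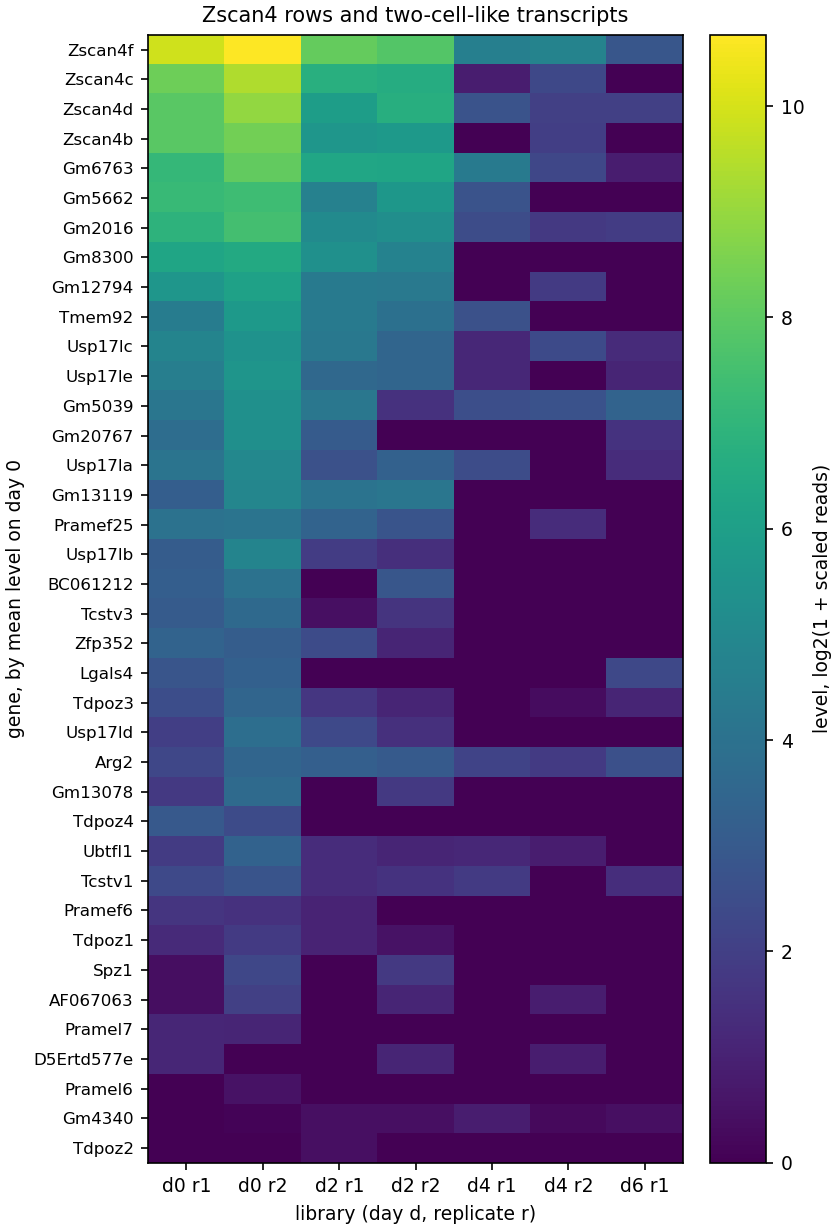
Level (colour, log2 of 1 plus scaled reads) of the 4 Zscan4 rows, Zfp352 and the 33 other 2-cell-like transcripts (rows, by mean level at day 0) in the 7 libraries (columns). Most rows are brightest in the second day 0 library and dark from day 4 on; Zscan4f keeps a level of 4.61 and 4.79 at day 4.

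Regulators came next. Dppa2 and Dppa4 are partner chromatin proteins known to be needed for Dux and Zscan4 expression in stem cells. Dppa2 was at 8.81 and 8.99 at day 0, 8.69 and 8.81 at day 2, 5.05 and 5.40 at day 4, and 3.43 at day 6. Dppa4 was at 8.69 and 8.51, then 8.97 and 8.85, then 6.90 and 6.74, then 5.23. By day 2 neither passed the test (limma adjusted p = 0.70 and 0.27), with log2 changes of -0.15 and 0.31. From day 2 to day 4 both fell, by 3.53 and 2.09 on the log2 scale (limma adjusted p = 0.0053 and 0.0082), and they fell again by day 6, by 1.79 and 1.59 (limma adjusted p = 0.022 and 0.020). Tbx3, a T-box factor reported to favour Zscan4 expression, fell by day 2 (limma adjusted p = 0.012 from day 0 to day 2). It was at 7.25 and 7.37 at day 0, 4.48 and 5.22 at day 2, 2.94 and 2.27 at day 4, and 3.53 at day 6. Whether Dppa2, Dppa4 or Tbx3 had a part in the Zscan4 levels was not tested.

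These were part of a list of 12 possible activators, on which the part played by Tet1, Tet2, Smarcad1, Usp7 and Zfp281 is less certain. The less certain genes had lower day means at day 4 than at day 2 too. Tet1 went from 10.97 to 9.46, Tet2 from 7.52 to 6.15 and Smarcad1 from 10.17 to 9.17. Usp7 went from 10.95 to 10.36 and Zfp281 from 9.58 to 8.96. The falls on this list are thus not those of known activators alone. At day 2, 2 of the 12 fell (against 6.20% of all genes), Tbx3 and Tet2, an enzyme that oxidises methylated DNA (log2 change -1.09). limma called neither without any 1 of the 6 libraries (2 to 4 of the 12 at an unadjusted p under 0.05). From day 2 to day 4, 7 of 12 fell (against 2.13% of all genes), with none called by limma without any 1 of the 6 libraries (8 or 9 at an unadjusted p under 0.05). From day 4 to day 6, with 1 library at day 6, 4 fell (against 3.18% of all genes): Usp7, Dppa2, Dppa4 and Trp53. Their number was 1 without day 2 replicate 1, 2 without day 2 replicate 2 and 0 without any library of day 0 or day 4 (7 or 8 at an unadjusted p under 0.05 in limma). The value of Usp7, a ubiquitin protease gene, stood out in the single day 6 library, at 5.08 after 10.32 and 10.41 at day 4. From day 0 to day 4, 9 of 12 fell (against 10.4% of all genes), and 2 to 9 when 1 library was left out, the lowest being 2 without day 4 replicate 1, 3 without day 0 replicate 2 and 4 without day 0 replicate 1.

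Genes known to hold the 2-cell-like state in check formed a list of 29. At day 2, 11 had risen from day 0 (37.9%, against 5.76% of all genes called higher) and 1 had fallen (3.45%, against 6.20% called lower). The largest rises were of the DNA methyltransferase genes Dnmt3a (log2 change 1.43, limma adjusted p = 0.0033) and Dnmt3b (1.32, limma adjusted p = 0.0016), followed by Chaf1b, a subunit of the histone chaperone CAF-1 (1.04, limma adjusted p = 0.028). The 11 became 5 with only the libraries of these 2 days, 3 without the trend and robust options, and 0 to 2 when any 1 of the 6 libraries was left out. The gene that fell was Zfp42 (Rex1), a repressor of endogenous retroviruses that is itself a marker of naive stem cells: it was at 10.69 and 10.54 at day 0, 9.64 and 9.31 at day 2, 7.25 and 7.23 at day 4, and 5.86 at day 6. Trim28 (Kap1), the co-repressor that silences retroviral elements, was at 11.35 and 11.74 at day 0, 11.24 and 11.14 at day 2, 11.12 and 11.14 at day 4, and 9.73 at day 6. It passed the test only in the step from day 4 to day 6 (log2 change -1.40, limma adjusted p = 0.020). From day 2 to day 4, 3 of the 29 fell (10.3%, against 2.13% of all genes), Zfp42, Zfp809 and Dnmt3a, and none rose (against 1.45%). Without any 1 of the 6 libraries limma called none of the 29 in this step, with 8 to 12 at an unadjusted p under 0.05. In the last step 7 fell (24.1%, against 3.18% of all genes) and none rose (against 1.27%), led by Dnmt3b (log2 change -2.66), L3mbtl2 (-1.51) and Trim28. The 7 became 2 without either day 2 library and 0 without any library of day 0 or day 4 (9 to 11 at an unadjusted p under 0.05 in limma). Over days 0 to 4, 10 rose (34.5%, against 11.3% of all genes) and 3 fell (10.3%, near the 10.4% of all genes). The 10 became 1 without either day 0 library or day 4 replicate 2, and 0 without day 4 replicate 1 (13 of the 29 at an unadjusted p under 0.05 in limma).

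**Figure D4:**
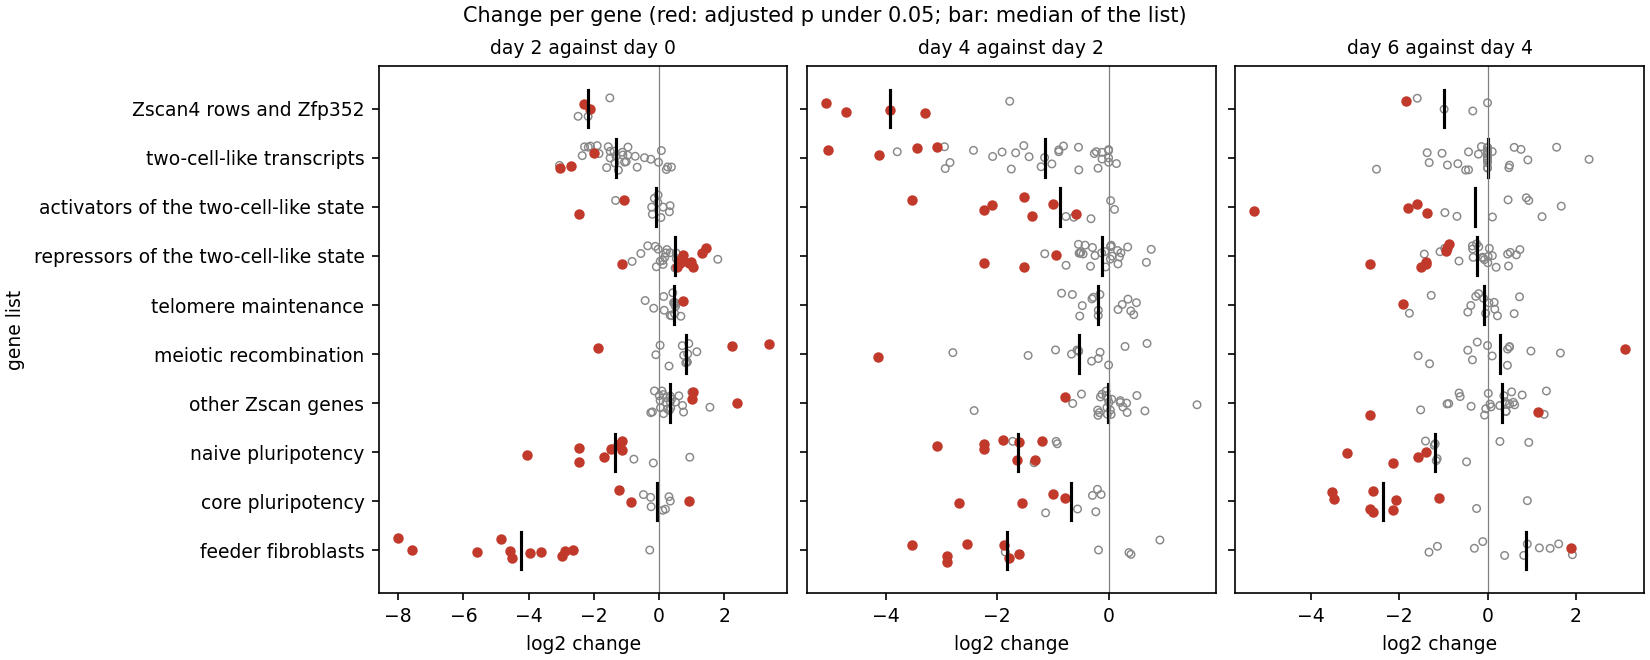
Log2 change (x axis) of each gene in 3 steps of culture (panels), by gene list (y axis); filled red points passed an adjusted p of 0.05, open points did not, and the bar is the list's median. Zscan4 rows lie left of 0 in each step, all 4 called from day 2 to day 4, while the median of the list of 29 repressors is above 0 from day 0 to day 2.

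Genes of telomere maintenance and meiotic recombination were read for the processes Zscan4 is tied to, and other SCAN and zinc finger genes as its relatives. Of 15 telomere maintenance genes, 1 rose by day 2 (6.67%, near the 5.76% of all genes called higher), Blm, a helicase (log2 change 0.72). None was called from day 2 to day 4 (against 3.59% of all genes), and 4 had an unadjusted p under 0.05 in limma. By day 6, with 1 library, 1 fell (6.67%, against 3.18% of all genes called lower), Daxx, a histone chaperone (-1.91). Of 14 meiotic recombination genes, 2 rose (14.3%, against 5.76% of all genes) and 1 fell (7.14%, against 6.20%) by day 2. Stra8, a gene of meiotic entry, was at 2.14 and 2.50 at day 0, 6.51 and 4.85 at day 2, 1.20 and 1.89 at day 4, and 1.10 at day 6. It rose by day 2 (limma adjusted p = 0.023) and fell by day 4 (limma adjusted p = 0.028). Dmc1, a recombinase, was at 3.63 and 3.19 at day 0 and 5.38 and 5.89 at day 2 (limma adjusted p = 0.012). Msh5, low at day 0 (2.18 and 1.60), was listed at 0 in all 4 libraries of days 2 and 4 and fell by day 2 (limma adjusted p = 0.047). In the single day 6 library Msh5 was at 3.11, above both day 0 values. Of 26 other SCAN and zinc finger genes, 3 rose by day 2 (11.5%, against 5.76% of all genes; Zkscan4, Zkscan8 and Zscan21, by 2.39, 1.03 and 1.00 on the log2 scale) and none fell. In the next step 1 of the 26 fell (3.85%, against 2.13% of all genes), Zscan10, a partner of the pluripotency network (-0.78, limma adjusted p = 0.044). From day 4 to the single day 6 library Zscan10 fell again (-2.65, limma adjusted p = 0.0066) while Zkscan1 rose (1.14). Each was 1 of the 26 (3.85%), against 3.18% of all genes called lower and 1.27% called higher.

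The other cells and states in the cultures moved over the same days. Of 12 feeder fibroblast markers, 11 fell from day 0 to day 2 (against 6.20% of all genes) with a median log2 change of -4.23, and their summed level was 21873 and 24903 scaled reads at day 0, 1672 and 1160 at day 2, 432 and 416 at day 4, and 570 at day 6. None of the 12 was at 0 in any library. The part of feeder RNA in the lower Zscan4 levels after day 0 was not tested. Of 12 naive pluripotency genes, 8 fell in each of the first 2 steps (against 6.20% and 2.13% of all genes) and 11 from day 0 to day 4 (against 10.4%), with a median log2 change of -3.06 over that interval. Of 10 core pluripotency genes, 5 fell (against 10.4% of all genes) and 1 rose (10.0%, near the 11.3% of all genes called higher) from day 0 to day 4. Of 9 neural progenitor markers, 8 rose from day 0 to day 4 (against 11.3% of all genes). Of 13 trophectoderm markers, 2 rose from day 2 to day 4 (against 1.45% of all genes), the keratin genes Krt8 and Krt18, and Tfap2c fell (1 of 13, against 2.13%).

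The genes whose levels followed the summed Zscan4 level most closely were ranked by Pearson correlation over the 7 libraries, among 11796 genes with a mean of at least 10 scaled reads. Most like was Dlc1, with r = 0.999 and levels of 9.21 and 9.45 at day 0, 8.61 and 8.45 at day 2, 7.24 and 7.28 at day 4, and 6.59 at day 6. Next came Jade1 (0.996), D1Pas1 and Trim25 (both 0.994), Glud1, Slc20a1 and Rassf5 (each 0.992) and Csgalnact1 (0.991), and the predicted genes Gm8764 and Gm21304 (both 0.994), whose values are identical in all libraries. Least like were Armcx2 (-0.999), Racgap1 (-0.998) and Tctn3 (-0.995). The ranking is coarse: 634 genes had r above 0.9, only 2 of the 10 stayed among the first 10 without day 6, and 80 genes, 5 of the 10 among them, kept exactly the order of the sum by Spearman correlation. The points share the days of culture, so no p is given. The ranges were unlike, too: Dlc1 spanned 2.86 on the log2 scale, D1Pas1 5.73 and Csgalnact1 6.11.

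Genes in and around the cluster gave little to compare. Inside it or within 500000 bases of it, 100 other genes are annotated, 17 are in the table and 5 were above 0. Some of these lie between the Zscan4 copies and were close to 0 in all libraries. Only Zik1, a zinc finger gene, had a mean level at the minimum of 10 scaled reads. Zik1 rose from day 0 to day 2 (log2 change 0.85, limma adjusted p = 0.039) while the Zscan4 rows were lower. In that step 5.76% of all genes were called higher. Whether this call held when a library was left out is not given here.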

How the data were processed

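Bulk polyA RNA-seq of 7 libraries was read from 1 deposited table of natural log values, in which all 7 value columns could be assigned to a library (0 columns unassigned). As deposited by the authors, the natural log values behave as ln of 1 plus scaled reads with the columns quantile normalized, which was read from the values. Per the submitters' processing notes, reads were placed on GRCm38. The aligner, the counter and the handling of reads that fit several genes were not given in the sources used here.

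Values were divided by ln 2. After 103 spike-in, reporter and selection rows and 8674 genes at 0 were left out, limma 3.58.1 (R 4.3.3; trend and robust options) was fitted to 21813 genes over all libraries, with 1 mean per day, 3 residual degrees of freedom and Benjamini-Hochberg adjustment over all genes. An adjusted p under 0.05 counted as a call. The script was tested on simulated data. Depth, 2840000 to 5850000 rough reads per library, was inferred from the smallest steps between values, and 16611 to 18211 genes were above 0. The inference takes scaled reads as proportional to reads, which quantile normalized values need not be. P-values measure the spread between these libraries, which may be partly technical. Sequences and neighbours came from RefSeq and GENCODE tables of the same build.

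The genes and lists were chosen with earlier results of these data known. Named were all 5 genes, up to 3 called genes per list, direction and comparison, 8 fixed genes (Dux, Tcstv1, Tcstv3, Dppa2, Dppa4, Trim28, Zfp42 and Tbx3), and the 10 genes most like and 3 least like the summed level. Msh5, Gm13119, Gm2016 and Zik1 fall partly outside this rule or belong to small counts named in full. Alternatives left out each library, added the replicate number as a block, filtered low means, changed the pseudocount to 0.5 or 10, centred the libraries, dropped limma's options or used only 2 days.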

Additional observations from a re-analysis of the deposited data

How the results depend on the processing

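The changes of the 5 genes kept their sign in the fits that gave a value, except that Zscan4d from day 4 to day 6 ran from -0.68 to 0.012 (log2 changes) when 1 library was left out, the latter without day 4 replicate 1. Zscan4b had no value there without day 4 replicate 2, since it was then at 0 at both days, and Zfp352 was at 0 at both days in every library. From day 0 to day 4 the 5 genes kept their calls in all 34 pairings of a gene with an alternative setting other than leaving out a library. Zfp352 had no value with the filter on low means. Counts of called genes moved more. When 1 library was left out, limma called 0 to 691 genes from day 0 to day 2 (2609 with all), 0 in each fit from day 2 to day 4 (782), 0 to 295 from day 4 to day 6 (972), 163 to 4152 from day 0 to day 4 (4731) and 0 to 4181 over any day (6232). Where limma called 0, the genes with an unadjusted p under 0.05 numbered 5502 from day 0 to day 2 (without day 4 replicate 1), 3511 to 5139 from day 2 to day 4, 4549 to 4961 from day 4 to day 6, and 6310 and 7918 over any day (without day 0 replicate 2 and without day 4 replicate 1). No other tool was run. These fits have fewer samples and residual degrees of freedom.

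Without limma's robust and trend options the counts were 1609, 335 and 609 in the 3 steps, and Zscan4b and Zscan4c from day 2 to day 4 and Zscan4d in the first 2 steps missed the threshold (limma adjusted p of 0.073, 0.056, 0.091 and 0.058), as did Zscan4f from day 4 to day 6 (0.097). The filter on low means gave 1422 from day 2 to day 4 and 2200 from day 4 to day 6, tested fewer genes, and brought Zscan4b and Zscan4c past the threshold from day 0 to day 2 (0.018 and 0.019), as did a pseudocount of 10 (0.0042 and 0.019) and a fit of only those 2 days (0.0059 and 0.025). Zscan4b also passed there without day 4 replicate 2 (0.048). For the other moved values the cause was not tested. Zscan4f from day 4 to day 6 missed the threshold with a pseudocount of 10 (0.11).

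The labels do not say whether libraries of the same replicate number were linked, though their column names share a tag over the days. Deviations of same-numbered libraries from the day mean correlated at -0.06, -0.07 and 0.22 over 11800 genes. With so few libraries per day, these values cannot decide it. With the replicate block, 606 genes were called from day 4 to day 6, where Zscan4f missed the threshold (0.069), and Zscan4b and Zscan4c passed it from day 0 to day 2 (0.042 and 0.038). The block changed no other call of the 5 genes, and moved the 11 repressor genes that rose by day 2 to 7.

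The sum with Zscan4-ps rows was not run, as there were none to add. List counts under the alternatives were added after seeing the data. Depth limits the late values: 3 of the 4 Zscan4 rows lie near 3 reads at day 4.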
